A study of Glycyrrhiza uralensis with 12 samples.

Results

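The S+G2 libraries hold full-length cDNA of 45 day old *Glycyrrhiza uralensis* (licorice) seedlings that received both 75 mM NaCl and *Bacillus cereus* G2, a strain isolated from roots of the same plant, at 100000000 cfu per ml. They were chosen by their label, which writes G2 as the letter B, and make 3 of 12 libraries. The other 9 are 3 each of S (75 mM NaCl without G2), CK+G2 (G2 at the same density without salt) and CK (distilled water). All seedlings were grown from seed in sterilized desert sand without nutrients. Salt was given from sowing, G2 was added once most seedlings had the third true leaf, and seedlings were ground for 3 biological replicates per treatment. The number of plants behind a library is not stated. The question was what is particular to salt and G2 together, so each gene and transcript in S+G2 was set against the mean of the S, CK+G2 and CK means and against each of the 3 treatments in turn.

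Sucrose synthase (SS) splits sucrose into fructose and UDP-glucose and can run in both directions, invertase (INV) splits it irreversibly, and α-glucosidase releases glucose from the end of α-linked sugars. β-Amylase (BM) releases maltose from starch, trehalose 6-phosphate synthase/phosphatase (TPS) makes a sugar signal that is low in most plants, and sugars enter the glycolytic Embden-Meyerhof-Parnas (EMP) pathway through hexokinase (HK) and phosphofructokinase (PFK). In plants under salt, soluble sugars serve as fuel and as osmolytes. A root-associated *Bacillus* can change plant sugar use, and such strains are studied as inoculants for saline soil.

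Every library had between 3303591 and 3929023 mapped reads, and 1 read was worth 0.255 to 0.303 CPM (counts scaled to 1000000 mapped reads), the unit of all levels below. Pearson's r of log2(CPM + 1) between libraries of 1 treatment was 0.940 to 0.958 in S+G2, 0.958 to 0.961 in S, 0.943 to 0.960 in CK+G2 and 0.955 to 0.972 in CK, ranges that touch or overlap. Libraries 2 and 3 were the least alike pair of S+G2. The photosynthetic markers, 2 Rubisco small chain genes and GPD (glyceraldehyde-3-phosphate dehydrogenase), had reads in all 12 libraries, and markers of other cell types were not examined because the annotation names no functions. Because seedlings were ground, fewer cells of a type and less RNA per cell cannot be told apart in any value below.

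No gene separated S+G2 from the other nine libraries after adjustment. Of 22751 genes that reached 1 CPM in 3 or more libraries, 0 (0%) had an adjusted p under 0.05 in limma's test on log2(CPM + 1). The unadjusted p was under 0.05 for 973 higher and 1952 lower genes, 2925 in all, beside 1138 expected if no gene differed. On the reads behind the CPM, edgeR's quasi-likelihood test also adjusted to 0 genes, and DESeq2 to 117 higher and 99 lower genes. The limma count rose to 92 without S+G2 library 3, to 17 without CK+G2 library 1, to 6 without CK library 1 and to 1 without S library 2, and stayed at 0 without any other single library. A looser criterion, an unadjusted p under 0.05 with at least a 1.5-fold difference, was met by 475 higher genes (2.09%) and 945 lower genes (4.15%). The study's methods set thresholds on p and fold and also mention adjustment of p, and do not make clear which p the threshold meant; here it was read as unadjusted. The excess of lower genes depended on scaling and tool, since TMM scaling gave 634 higher and 749 lower, median-of-ratios scaling 651 higher and 732 lower, edgeR 684 higher and 606 lower and DESeq2 739 higher and 679 lower, so that the last pair of fits turned the excess to higher genes. Without S+G2 library 3 the criterion was met by 2243 genes, 788 higher and 1455 lower. Genes named below as past the criterion are therefore past an unadjusted threshold only.

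The distance of S+G2 from each treatment was smallest against S. The criterion was met by 459 higher and 454 lower genes against S (4.01% of the genes tested), with 1449 genes in all without S+G2 library 3. At an adjusted p under 0.05 limma and edgeR called 0 and DESeq2 26. In limma 1367 genes had an unadjusted p under 0.05, beside 1138 expected if no gene differed. Against CK+G2 it was met by 646 higher and 1310 lower genes (8.6%), or 927 and 905 after TMM scaling, and the adjusted p was under 0.05 for 5 in limma, 3 in edgeR and 189 in DESeq2. Leaving out CK+G2 library 1 gave 2932 genes past the criterion. Against CK it was met by 821 higher and 1711 lower genes (11.1%), or 1072 and 1364 after TMM scaling, with 232 genes at an adjusted p under 0.05 in limma, 131 in edgeR and 594 in DESeq2. These 3 comparisons share the S+G2 libraries.

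**Figure D1:**
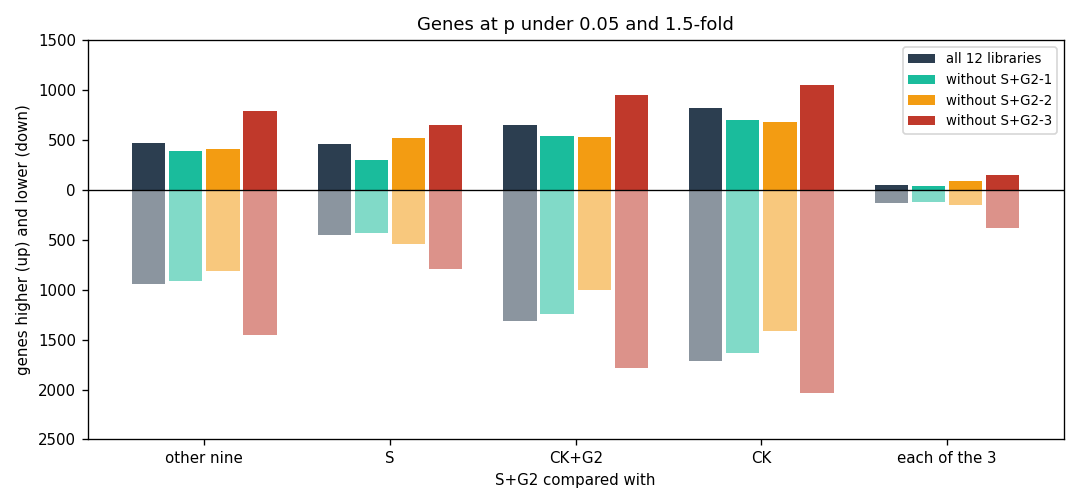
Genes at an unadjusted p under 0.05 and at least a 1.5-fold difference (y axis, number of genes higher in S+G2 drawn upward and lower drawn downward) in each comparison of S+G2 (x axis), with all 12 libraries and without each S+G2 library in turn. Without S+G2 library 3 the bars are longer in every comparison, and against each of the 3 treatments they reach 145 higher and 384 lower genes, against 50 and 134 with all libraries.

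Genes that differed from all 3 other treatments were fewer. The criterion was met in the same direction against S, CK+G2 and CK by 50 higher genes (0.22%) and 134 lower genes (0.589%). Median-of-ratios scaling gave 71 higher and 109 lower, a filter at a mean of 10 reads 24 and 109, a pseudocount of 0.5 CPM 40 and 155, and a pseudocount of 0.1 CPM 32 and 186. Leaving out S+G2 library 3 raised the 184 genes to 529. A further refit left out CK library 1 with CK+G2 libraries 2 and 3, which an earlier look at these data had found apart from the rest. It kept only CK+G2 library 1, so its counts are not given. That library was the least like its partners, with r of 0.943 and 0.947, against 0.960 between CK+G2 libraries 2 and 3. Without a model, the 3 S+G2 values lay above all 9 others for 159 genes (0.699%) and below all 9 for 336 (1.48%), and after TMM scaling for 257 and 235.

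The other treatments, set against their own 9 counterparts in the same way, had counts on both sides of these. S+G2 had 184 genes past the criterion against each of the other 3 treatments, S had 164, CK+G2 had 88 and CK had 339. Genes without overlap numbered 495 for S+G2, 303 for S, 229 for CK+G2 and 611 for CK. At an adjusted p under 0.05 in limma there were 0 genes for S+G2, 7 for S, 5 for CK+G2 and 201 for CK. S+G2 thus stood behind CK in both unadjusted counts and last in the adjusted one, and the differences between these counts were not tested.

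Among 22 carbohydrate genes with an enzyme name, SS (sucrose synthase) was the one past the criterion against each of the 3 treatments. The names come from the study, which drew the list from these libraries and picked SS, α-glucosidase, a TPS and a pyruvate decarboxylase (PDC) gene on S+G2 against S, so the list is not independent evidence of direction. Of the 22, 3 were higher and 2 lower in S+G2 than in the other nine at the criterion, beside 2.09% and 4.15% of all genes, and none had an adjusted p under 0.05, the range being 0.0823 to 0.967. The median log2 difference was 0.15 over the 22 genes and -0.06 over all genes tested. S+G2 had the highest mean of the 4 treatments for 9 of the 22 genes, the lowest for 0 and a middle place for 13. These places were not counted over all genes, and the choice of the list on these libraries shapes them. For 11 of the 22 an annotated gene overlaps on the opposite strand, and whether reads were counted by strand is not stated.

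SS (Glyur001957s00039090, scaffold 01957, positions 34519 to 41018, plus strand, 14 exons) had 257, 151 and 173 CPM in the S+G2 libraries. The 9 other libraries ran from 83.0 to 126 CPM with a median of 104. All 3 S+G2 values lay above all 9 others, with library 1 well above its 2 partners. S+G2 averaged 194 ± 56.0 CPM, against 114 ± 10.4 in S, 118 ± 11.9 in CK+G2 and 86.4 ± 4.40 in CK (SD, n = 3 each). The log2 difference from the other nine was 0.84 (SE 0.15, limma unadjusted p = 6.66e-05, adjusted p = 0.0823), and it was 0.73 against S, 0.68 against CK+G2 and 1.12 against CK. It stayed past the criterion in all 23 alternatives, from 0.62 without S+G2 library 1 to 1.00 without S+G2 library 2. The G2 difference with salt (S+G2 minus S) exceeded that without salt (CK+G2 minus CK) by 0.29 on the log2 scale. Its SE was 0.26 and the unadjusted p 0.272 in limma's interaction test, a contrast chosen after the data were seen. A rise of SS beyond salt and G2 differences that add up on the log2 scale was thus not shown.

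Reads from SS fell on 3 transcripts. The assembled transcript ONT.15935.1 carried most of them, with 192, 118 and 122 CPM in S+G2 against at most 101 CPM in any other library. The annotated transcript had 19.97, 11.1 and 22.8 CPM in S+G2, which was above every other library. The third, ONT.15935.5, had 45.3, 21.6 and 28.2 CPM in S+G2 and overlapped the others through S library 3 at 24.4 CPM. The share of SS reads on ONT.15935.1 was 74.5% in S+G2, against 80.7% in S, 80.7% in CK+G2 and 79.7% in CK. By library the shares overlapped, at 70.5% to 78.4% in S+G2 and 72.8% to 86.0% in the other nine. Reads from other members of the SS family with nearly the same sequence cannot be told apart here.

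The second gene of the list without overlap was α-glucosidase (Glyur000005s00001105, scaffold 00005, positions 605785 to 609500, plus strand, 5 exons). It had 34.1, 27.7 and 33.4 CPM in S+G2, and the other 9 libraries ran from 14.8 to 23.2 CPM with a median of 19.1. The 3 S+G2 libraries lay close together and above all others. S+G2 averaged 31.7 ± 3.50 CPM, against 19.0 ± 4.22 in S, 21.3 ± 2.90 in CK+G2 and 18.6 ± 1.72 in CK (SD, n = 3 each). The log2 difference was 0.67 (SE 0.15, limma unadjusted p = 6.65e-04, adjusted p = 0.131). Against CK+G2 the log2 difference of 0.56 was under 1.5-fold, which kept this gene from passing against each of the 3. The G2 difference with salt minus that without was 0.55 (SE 0.26, unadjusted p = 0.0590 in limma's interaction test).

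The study designed primer pairs for SS and α-glucosidase. In its qRT-PCR on the same RNA pools, G2 under salt raised α-glucosidase, and SS was not named among the genes raised. The primers are given here because they mark the sequences of the 2 listed genes without overlap. They are written 5′ to 3′ and all in lower case because no base is singled out.
SS forward: tttgttgctttggctgttcg
SS reverse: ttagcagaaagatggcggttg
α-glucosidase forward: taccactcctactccactcccact
α-glucosidase reverse: caaagacttgcctgttgtggg

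**Figure D2:**
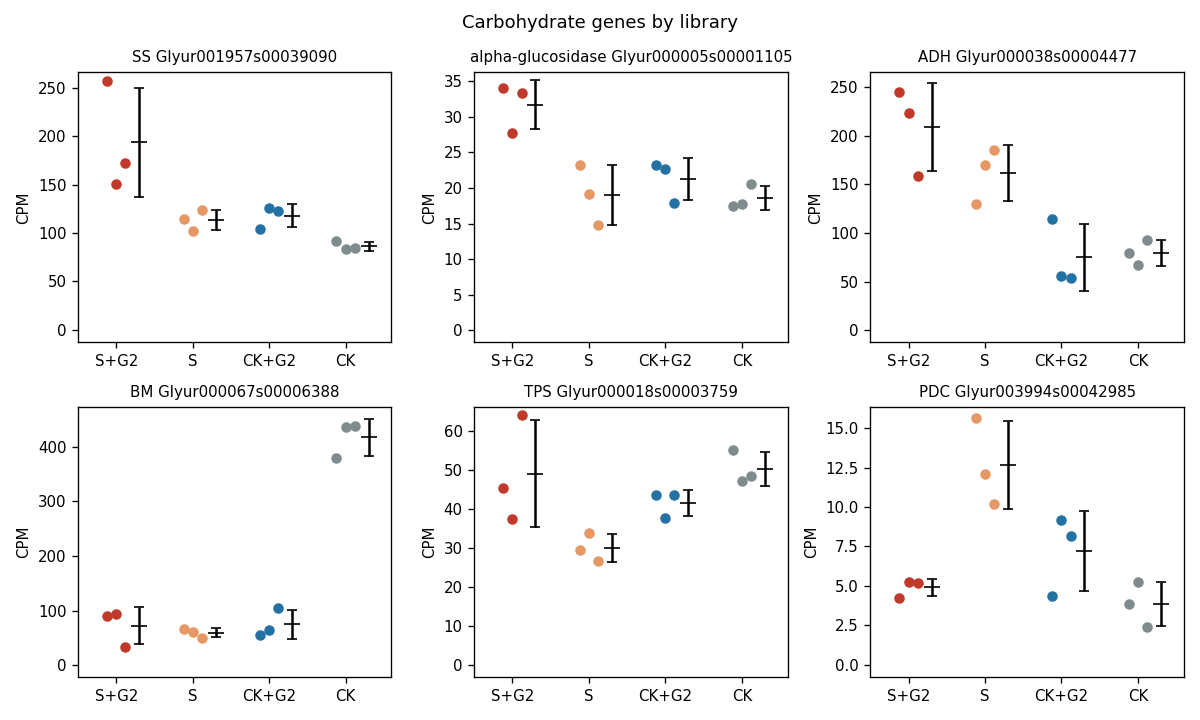
Level in CPM (y axis) of 6 carbohydrate genes in the 3 libraries of S+G2, S, CK+G2 and CK (points), with the mean and SD of each treatment beside them. The S+G2 points of SS and α-glucosidase lie above all 9 others, S+G2 and S are both above CK+G2 and CK for ADH, and CK alone is high for BM.

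The third gene higher in S+G2 was ADH (Glyur000038s00004477, scaffold 00038), annotated as S-(hydroxymethyl)glutathione dehydrogenase/alcohol dehydrogenase, an enzyme that detoxifies formaldehyde and reduces nitrosoglutathione. It had 245, 224 and 158 CPM in S+G2. The other libraries had 130, 170 and 185 CPM in S, 115, 56.3 and 53.8 CPM in CK+G2 and 79.3, 66.7 and 92.9 CPM in CK. S+G2 library 3 lay among the S libraries, so the groups overlapped. ADH was higher than in the other nine by 1.09 on the log2 scale (SE 0.22, limma unadjusted p = 2.56e-04, adjusted p = 0.0903). The difference was large against the treatments without salt, with 1.53 against CK+G2 and 1.37 against CK, while against S it was 0.36 (SE 0.27, unadjusted p = 0.203 in limma).

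Among the 14 transcripts of ADH, ONT.2029.11 had 41.3, 15.0 and 16.6 CPM in S+G2 and no more than 8.58 CPM in any other library. It carried 11.3% of ADH reads in S+G2, against 2.70% in S, 5.60% in CK+G2 and 6.24% in CK. By library these shares overlapped, at 6.72% to 16.8% in S+G2 and 1.56% to 12.9% in the other nine. ONT.2029.11 was singled out after its values were seen, and its log2 difference from the other nine was 2.26 (SE 0.45, limma adjusted p = 0.0961). ONT.2029.6, the most abundant of the 14 in S+G2, averaged 83.4 CPM there and 28.1 CPM in the other nine and overlapped them. In the other nine ONT.2029.8 was slightly higher, with 37.9 CPM in S+G2 and 31.1 CPM in the other nine.

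Neither lower gene of the list passed the criterion against S. BM Glyur000067s00006388 had 89.7, 93.7 and 33.9 CPM in S+G2, against 50.4 to 66.7 CPM in S and 54.96 to 105 CPM in CK+G2, so these 3 treatments overlapped. CK had 379, 436 and 438 CPM. The log2 difference from the other nine was -0.87 (SE 0.27, limma unadjusted p = 0.00612, adjusted p = 0.225), made up of 0.16 against S, -0.13 against CK+G2 and -2.64 against CK. With the other libraries taken as 1 group the limma unadjusted p was 0.235, and without S+G2 library 3 it was 0.0674 with a log2 difference of -0.40. In limma's interaction test the G2 difference with salt minus that without was 2.67 (SE 0.46, unadjusted p = 5.93e-05, adjusted p = 0.112). CK alone stood apart there. The second BM gene, Glyur000047s00004005, averaged 10.7 ± 2.17 CPM in S+G2 and 27.0 ± 5.45 CPM in CK (SD, n = 3 each) and did not reach 1.5-fold against the other nine (log2 difference -0.55).

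β-Glucosidase Glyur000214s00016036, of the family that releases glucose from β-linked glucosides, had 6.39, 4.49 and 11.1 CPM in S+G2. S had 4.64 to 8.998 CPM, CK+G2 9.84 to 19.99 CPM and CK 12.7 to 20.3 CPM, so S+G2 and S were the low treatments. Its log2 difference from the other nine was -0.70 (SE 0.27, limma unadjusted p = 0.0231, adjusted p = 0.318), made up of -0.01 against S, -0.92 against CK+G2 and -1.18 against CK. The limma call was lost with the other libraries as 1 group, without S+G2 library 1 (log2 difference -0.66) and without S+G2 library 2 (-0.44). Without CK library 1 and CK+G2 libraries 2 and 3, which kept 1 CK+G2 library, the log2 difference was -0.51.

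The other 2 β-glucosidase genes, INV and both TPS genes did not pass the criterion against the other nine. TPS Glyur000018s00003759 had 45.3, 37.5 and 64.2 CPM in S+G2, against 26.7 to 33.7 CPM in S, 37.6 to 43.5 CPM in CK+G2 and 47.1 to 55.1 CPM in CK. S+G2 lay above S without overlap (log2 difference 0.66, limma unadjusted p = 0.00320) and overlapped CK+G2 and CK. TPS Glyur000231s00022077 had 29.6, 40.6 and 9.32 CPM in S+G2 and 42.0 to 105 CPM in CK, with S and CK+G2 between 11.8 and 24.9 CPM. β-Glucosidase Glyur000779s00022830 was counted with 2 to 7 reads per S+G2 library, at 1.86, 0.528 and 1.81 CPM, below the 2.55 to 3.09 CPM of S. S+G2 libraries 1 and 3 lay above the 0.257 to 1.09 CPM of CK+G2 and CK, and library 2 lay inside that range. β-Glucosidase Glyur000585s00027748 had 49.8, 41.4 and 57.5 CPM in S+G2 and 30.5 to 67.9 CPM in the other nine. INV (Glyur000064s00005640) had 9.85, 7.65 and 4.66 CPM in S+G2, inside the 3.09 to 21.6 CPM of the other nine.

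Of the 10 listed genes of starch and sucrose metabolism, 2 were higher and 2 lower at the criterion, beside 2.09% and 4.15% of all genes tested. The median log2 difference was -0.04, beside -0.06 over all genes tested. The 2 higher genes, SS and α-glucosidase, are also the 2 of the 22 without overlap, where 0.699% of all genes lay above the other nine. The study listed both for being higher in S+G2 than in S in these same libraries. The counts therefore do not bear on the pathway as a whole.

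**Figure D3:**
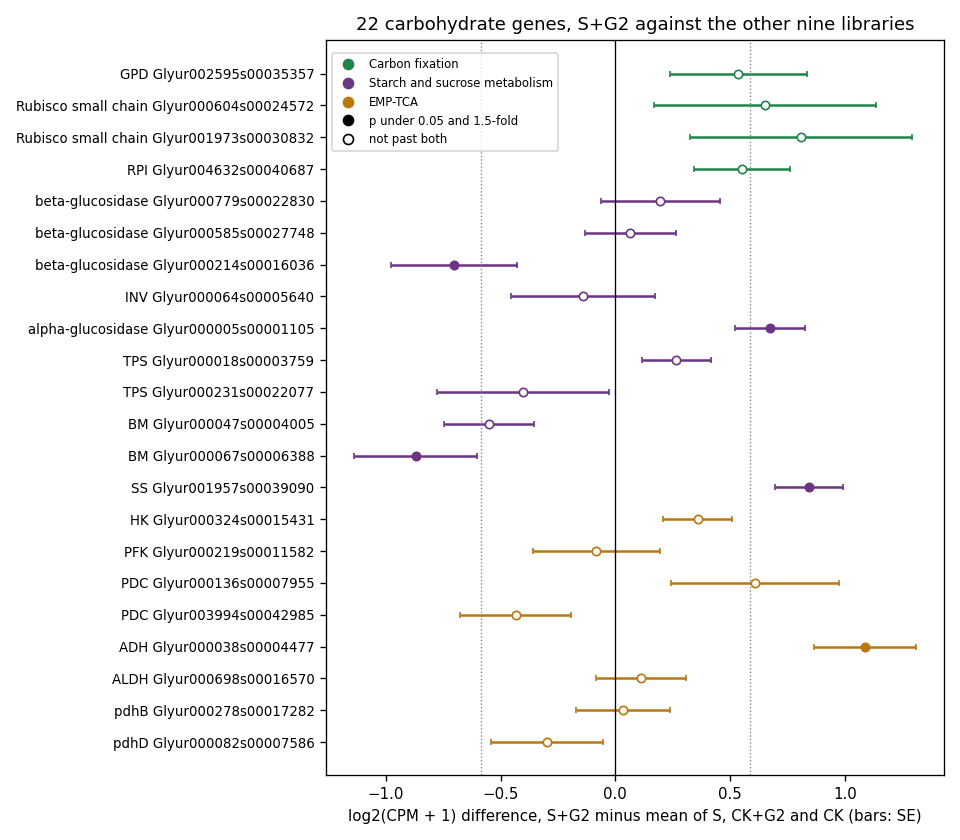
Difference in log2(CPM + 1) of S+G2 from the mean of the S, CK+G2 and CK means (x axis, bars are the SE of the limma fit) for 22 carbohydrate genes (y axis), coloured by pathway. Filled points passed an unadjusted p under 0.05 and 1.5-fold (dotted lines); 3 are higher, 2 are lower and the 4 carbon fixation genes are all above 0 with wide bars.

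All 4 carbon fixation genes had their highest treatment mean in S+G2, and none passed the criterion. The study listed these 4 as raised by salt in these same libraries, and such places were not counted over all genes. The first Rubisco small chain gene, Glyur000604s00024572, part of the enzyme that fixes CO2, had 23125, 32629 and 18027 CPM in S+G2. The other 9 libraries ran from 7523 to 26328 CPM. CK+G2 library 1 was the highest of these 9 and CK+G2 library 3 the lowest. The S libraries, at 20058.5 to 21858 CPM, lay inside the S+G2 range. Its log2 difference from the other nine was 0.65 (SE 0.48, limma unadjusted p = 0.201).

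The second Rubisco small chain gene, Glyur001973s00030832, had 514, 1095 and 363 CPM in S+G2 and 122 to 787 CPM elsewhere, a log2 difference of 0.81 (SE 0.48). GPD (Glyur002595s00035357) averaged 3133 ± 935 CPM in S+G2, against 2978 ± 74.6 in S, 2011 ± 1141 in CK+G2 and 1748 ± 457 in CK (SD, n = 3 each), a log2 difference of 0.54. RPI (Glyur004632s00040687, ribose 5-phosphate isomerase, which feeds the Calvin cycle) had 123, 170 and 115 CPM in S+G2 and 59.7 to 135 CPM elsewhere, a log2 difference of 0.55. Against S the log2 differences of the 4 genes were 0.03 to 0.19, each smaller than its SE, and S+G2 and S overlapped in all 4.

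Single libraries moved the carbon fixation differences both ways. Leaving out S+G2 library 2 lowered the log2 difference from the other nine to 0.30 for GPD and 0.38 for RPI. For the Rubisco small chain genes it fell to 0.43 and 0.36, and all 4 stayed under 1.5-fold. Without CK+G2 library 1 all 4 genes passed the criterion, with log2 differences from the other nine of 0.68 for GPD, 0.83 and 1.09 for the Rubisco small chain genes and 0.66 for RPI, and limma unadjusted p-values of 0.00775, 0.0388, 0.00549 and 0.00137. RPI alone also passed after TMM scaling, at 0.61, after median-of-ratios scaling, at 0.62, and in edgeR and DESeq2. It passed in 4 of 12 fits that left out 1 library, the one without CK+G2 library 1 among them. Within S+G2, library 2 was highest and library 3 lowest for all 4 genes. The part of photosynthetic tissue in the differences of other genes was not tested. The Rubisco small chain genes form a family of near copies, so reads may be split between them.

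Of the 8 listed genes of the EMP pathway and the tricarboxylic acid (TCA) cycle, ADH was the only one past the criterion. Of all genes tested, 2.09% were higher and 4.15% lower at the criterion. HK (Glyur000324s00015431) averaged 36.6 ± 10.8 CPM in S+G2, against 31.9 ± 1.52 in S, 30.0 ± 2.10 in CK+G2 and 21.9 ± 1.97 in CK (SD, n = 3 each), a log2 difference of 0.36 that did not reach 1.5-fold. PFK (Glyur000219s00011582) had 7.46, 5.01 and 9.83 CPM in S+G2, inside the 3.63 to 15.4 CPM of the other nine. The pyruvate dehydrogenase subunits pdhB (Glyur000278s00017282) and pdhD (Glyur000082s00007586) and the aldehyde dehydrogenase ALDH (Glyur000698s00016570) had log2 differences of 0.03, -0.30 and 0.11.

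The 2 genes for pyruvate decarboxylase (PDC), which turns pyruvate into acetaldehyde at the entry to ethanol fermentation, differed in pattern. Glyur003994s00042985 had 4.26, 5.28 and 5.18 CPM in S+G2. S had 15.7, 12.1 and 10.2 CPM, so S+G2 lay below S without overlap (log2 difference -1.19, limma unadjusted p = 0.00139). CK+G2 had 4.37 to 9.21 CPM and CK 2.42 to 5.26 CPM, and S+G2 overlapped both. Glyur000136s00007955 had 5.59, 12.7 and 8.02 CPM in S+G2 and its highest single value, 16.7 CPM, in CK+G2 library 1. It differed from the other nine by 0.61 on the log2 scale (SE 0.37), and without CK+G2 library 1 it was 0.81 and past the criterion (limma unadjusted p = 0.00950). Without S+G2 library 2 the log2 difference was 0.33.

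Outside the list, genes carry no name in the annotation, and the first 2 higher and the first 2 lower genes by p among those without overlap are given by identifier. SS was one of the 2 higher. The other was Glyur001198s00038327 (scaffold 01198, positions 36065 to 38146, plus strand, 3 exons). It had 83.3, 40.4 and 47.4 CPM in S+G2, which is 153 to 313 reads per library. S had 7.83, 0 and 6.11 CPM, CK had 12.6, 0 and 0 CPM, and all 3 CK+G2 libraries were at 0. The lowest S+G2 library thus had 40.4 CPM and the highest other library 12.6 CPM.

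The log2 difference of Glyur001198s00038327 from the other nine was 4.71 (SE 0.75, limma unadjusted p = 2.64e-05, adjusted p = 0.0823). The mean of S+G2, 57.0 ± 23.1 CPM (SD, n = 3), was 12.3 times that of S and 13.6 times that of CK. Against CK+G2 it was at least 69.8-fold higher, taking 3 reads per library as the level that an absence of reads allows. An annotated gene on the opposite strand overlaps it and has no row of its own in the gene table.

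The lower genes were less exclusive. Glyur002794s00040886 (scaffold 02794, positions 28540 to 29706, minus strand, 1 exon) had 9.58, 10.3 and 8.02 CPM in S+G2. S had 14.3 to 17.6 CPM, CK+G2 11.3 to 15.4 CPM and CK 32.7 to 41.8 CPM. S+G2 was the lowest treatment and CK+G2 came nearest to it. It was lower by a log2 difference of -1.02 (SE 0.15, limma unadjusted p = 9.01e-06, adjusted p = 0.0823), and against CK+G2 alone it was -0.47.

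Glyur000187s00024047 (scaffold 00187, positions 250855 to 251560, minus strand, 2 exons) had 3.20, 1.58 and 3.88 CPM in S+G2, or 6 to 15 reads per library. S had 6.09 to 9.56 CPM, CK+G2 8.15 to 17.0 CPM and CK 20.9 to 61.0 CPM. The means of the 4 treatments were 2.89 CPM in S+G2, 7.34 CPM in S, 12.7 CPM in CK+G2 and 37.3 CPM in CK. Against the other nine the log2 difference was -2.05 (SE 0.31, limma unadjusted p = 1.45e-05, adjusted p = 0.0823), and it passed the criterion against each of the 3 treatments. In limma's interaction test the G2 difference with salt minus that without was 0.27 (SE 0.53, unadjusted p = 0.619). The same limma test gave 5.05 (SE 1.30, unadjusted p = 0.00182) for Glyur001198s00038327 and 0.76 (SE 0.26, unadjusted p = 0.0103) for Glyur002794s00040886.

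**Figure D4:**
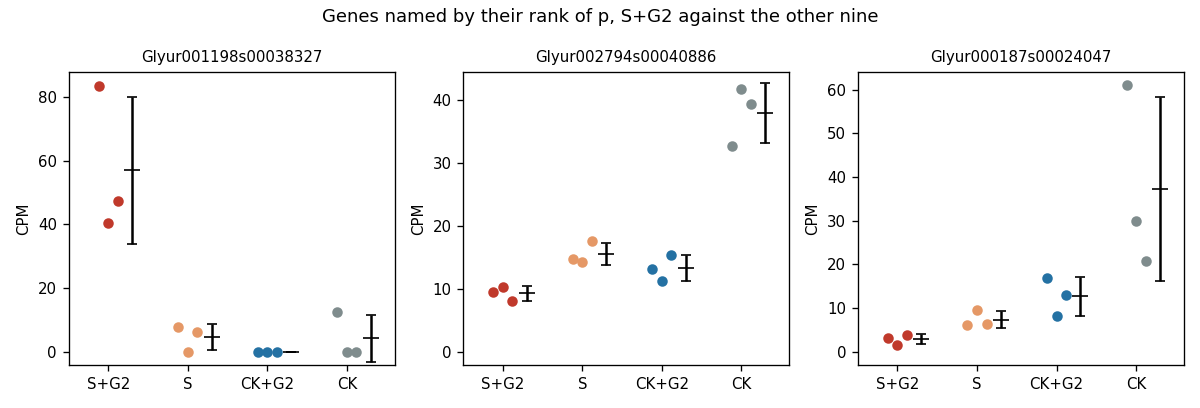
Level in CPM (y axis) of the 3 genes named by their rank of p beside SS, in the 3 libraries of S+G2, S, CK+G2 and CK (points), with the mean and SD of each treatment. For Glyur001198s00038327 the S+G2 libraries, at 40.4 to 83.3 CPM, stand above 9 libraries of at most 12.6 CPM, and for the other 2 genes S+G2 is lowest and CK highest.

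A few transcripts separated S+G2 from the other libraries after adjustment. Of 43795 transcripts tested, 5 were higher (0.0114%) and 11 lower (0.0251%) in S+G2 than in the other nine at an adjusted p under 0.05 in limma. edgeR called 9 and DESeq2 278, a 2-group fit called 4, and leaving out 1 library gave from 4 without S+G2 library 1 to 149 without S+G2 library 3. The count was 7 without S+G2 library 2, 9 without S library 3, 37 without CK+G2 library 1 and 29 without CK+G2 library 2. Without overlap, 332 transcripts (0.758%) lay above and 614 (1.4%) below all other libraries. Of the 16 called transcripts 14 were assembled from the long reads and 2 were annotated models, and 14 did not overlap the other nine.

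For 10 of the 16 the whole gene passed the criterion in the same direction. For 2 of these, ONT.14854.1 and Glyur000187s00024047.1, the transcript is the only one of its gene, and ONT.16749.1 carried 100% of its gene's reads in S+G2 and 99.4% in the other nine, so that the match of gene and transcript was fixed or nearly so. For the other 6 the gene did not, with gene log2 differences between -0.50 and 0.58. Assembled transcripts were tied to a gene where the gene's reads beyond its annotated transcripts equalled the summed reads of 1 assembled locus in all 12 libraries, which held for 13349 of 13840 genes with at least 50 such reads. How the authors split reads between nearly identical transcripts sets these values.

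Of the 11 lower transcripts, the first 2 by p among those without overlap were ONT.788.3 and ONT.13786.2, the second being a transcript of Glyur001026s00034299 (scaffold 01026, positions 14862 to 18030, minus strand, 4 exons). ONT.13786.2 had 2.66, 4.75 and 25.9 CPM in S+G2. The other 9 libraries ran from 89.3 to 248 CPM with a median of 169. The groups were far apart, and S+G2 library 3 was the nearest to the rest. The log2 difference was -4.28 (SE 0.44, limma adjusted p = 0.00226), and it was -4.46 against S, -4.46 against CK+G2 and -3.93 against CK.

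The sister transcript ONT.13786.1 had its highest levels in S+G2. It had 284, 255 and 238 CPM in S+G2 and 69.4 to 178 CPM in the other nine, without overlap (log2 difference 0.97, limma adjusted p = 0.167). ONT.13786.2 carried 0.907%, 1.80% and 9.60% of the gene's reads in S+G2, against 35.8% to 77.3% in the other libraries. The gene as a whole had 264 to 293 CPM in S+G2 and 249 to 352 CPM in the others, which overlapped (log2 difference -0.14, limma unadjusted p = 0.243). Which exons tell the 2 transcripts apart was not analysed here.

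**Figure D5:**
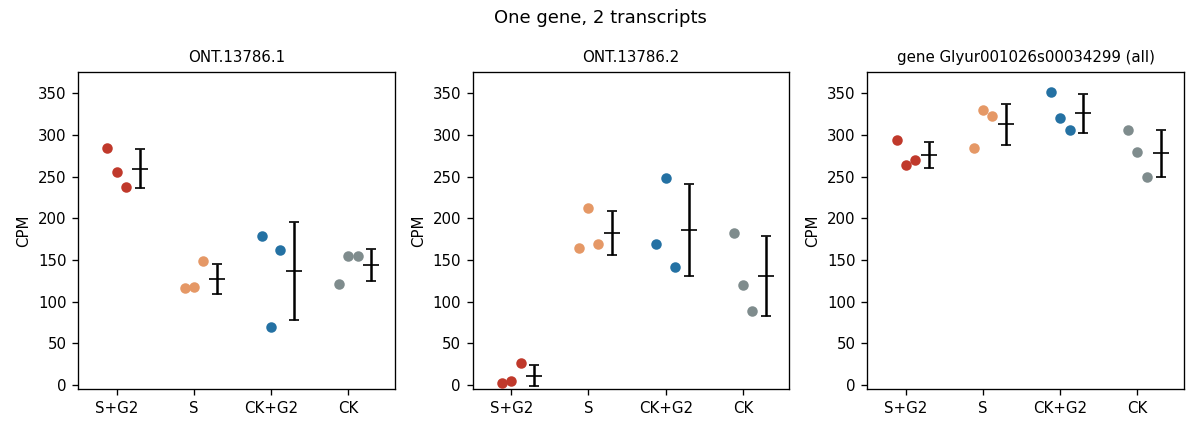
Level in CPM (y axis, the same in all panels) of ONT.13786.1, of ONT.13786.2 and of all reads of their gene Glyur001026s00034299 in the 3 libraries of S+G2, S, CK+G2 and CK (points), with the mean and SD of each treatment. In S+G2 the first transcript is high at 238 to 284 CPM and the second low at 2.66 to 25.9 CPM, while the gene total stays between 249 and 352 CPM in all 12 libraries.

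ONT.788.3 is a transcript of Glyur000012s00000559 (scaffold 00012, minus strand, 2 exons). It had 18.9, 23.2 and 20.7 CPM in S+G2, against 32.8 to 45.3 CPM in S, 60.8 to 78.2 CPM in CK+G2 and 81.7 to 97.2 CPM in CK. Each treatment occupied a range of its own, with S+G2 lowest. Against the other nine the log2 difference was -1.51 (SE 0.15, limma adjusted p = 0.00226). The gene passed the criterion in the same direction, averaging 115 ± 41.4 CPM in S+G2 (SD, n = 3) and 235 ± 63.1 CPM in the other libraries (SD, n = 9), but S+G2 overlapped them there.

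Of the 5 higher transcripts, the first 2 by p among those without overlap were Glyur000045s00009983.1 and ONT.10751.9. The other 3, ONT.14854.1, ONT.14024.4 and ONT.14790.1, had log2 differences of 2.88, 1.80 and 2.12. Glyur000045s00009983.1 had 24.0, 52.2 and 46.3 CPM in S+G2 and 3.03 to 7.47 CPM in the other nine, without overlap. Its log2 difference was 2.74 (SE 0.28, limma adjusted p = 0.00226). It is the annotated transcript of a gene with 7187 to 17703 CPM in S+G2 and 7875 to 31607 CPM elsewhere, and it carried 0.381% of that gene's reads in S+G2, against 0.0422% in S, 0.0216% in CK+G2 and 0.0240% in CK. The gene total itself overlapped (log2 difference -0.50, limma unadjusted p = 0.333), and its remaining reads were not tied to a single assembled locus.

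ONT.10751.9, 1 of 10 transcripts of Glyur000540s00023670 (scaffold 00540, minus strand, 6 exons), had 21.3, 27.2 and 37.8 CPM in S+G2 and 5.26 to 13.2 CPM in the other nine. The log2 difference was 1.53 (SE 0.19, limma adjusted p = 0.00862). It took 8.33% of the gene's reads in S+G2, against 4.02% in S, 3.78% in CK+G2 and 4.10% in CK. The gene had 280 to 380 CPM in S+G2 and 141 to 305 CPM elsewhere, a log2 difference of 0.58 just under 1.5-fold. In limma's interaction test the G2 difference with salt minus that without was 0.57 for ONT.10751.9 (SE 0.32, unadjusted p = 0.0998). It was -0.41 for ONT.788.3 (SE 0.25, limma unadjusted p = 0.126). For Glyur000045s00009983.1 and ONT.13786.2 it was 2.90 and -4.99, with limma adjusted p of 0.0908 and 0.0533.

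Gene structure, which the choice did not use, was compared between the 184 genes past the criterion against each of the 3 treatments and all genes tested, as a description. Single-exon genes made up 13.6% of the annotated ones among them and 12.9% of all annotated genes tested. Their median annotated transcript length was 1433 bases, against 1509, and loci assembled outside the annotation were 8.15% of them, against 5.56%.

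The choice of the 184 fixes much of their size and separation, so the next counts are a description beside all 22751 genes tested. At least 2-fold against every treatment was reached by 13 higher and 51 lower genes, beside 116 of all genes at any p, and 106 of the 184 had no overlap between S+G2 and the other nine, beside 2.18% of all genes. Against S the difference was the smallest of the 3 for 109 of the 184 and for 10362 of all genes. Among the 169 annotated ones, 2 pairs were direct neighbours on a scaffold, and both pairs were lower in S+G2. No more than 2 genes had reads in all 3 S+G2 libraries and in none of the others, with at most 4 reads in all, and 6 genes had reads in all 9 others and none in S+G2, with at most 71 reads over the 9.

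None of 5 library-wide measures passed the test between S+G2 and the other libraries. Thinned to 3303591 reads each, the S+G2 libraries had 24648, 24743 and 24572 genes with reads, and the others 24645 to 24913 (mean difference -128, adjusted exact permutation p = 0.136). The 100 most abundant genes took 27.5%, 29.9% and 27.9% of reads in S+G2 and 23.2% to 28.3% in the other nine (adjusted exact permutation p = 0.136). Assembled loci took 1.83 ± 0.107% in S+G2 (SD, n = 3) and 2.05 ± 0.147% in the others (SD, n = 9, adjusted exact permutation p = 0.136), and single-exon genes took 10.6% and 10.98% (adjusted exact permutation p = 0.209). The read-weighted mean annotated transcript length was 1900 bases in S+G2 and 1880 bases in the others (adjusted exact permutation p = 0.159). The tests were two-sided, with 3 against 9 libraries, where the smallest exact permutation p is 0.00909, and p was adjusted over the 5 measures.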

How the data were processed

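Full-length cDNA of 12 libraries, 3 per treatment, was prepared from ground seedlings that the study grouped by weight; which pots made up a library is not stated. The protocol and the read processing are those of Oxford Nanopore long reads, while the labels mention Illumina library preparation and the study's methods an Illumina instrument. The reads were taken as long reads, and every statement on full-length cDNA and transcripts rests on that. The authors discarded short, low-quality and ribosomal reads, polished full-length reads and mapped them to a reference transcriptome (minimap2 in the submitters' processing notes; version, annotation release and use of strand not stated). They deposited CPM, reads scaled to 1000000 mapped reads, for 29436 genes and 61882 transcripts, and an annotation of 34445 genes whose scaffold positions are given here. All CPM values gave whole reads within 0.01. The level of 3 reads taken for an absence of reads covers counting error only, while the SDs and SEs given reflect differences between libraries.

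In R 4.3.3, limma 3.58.1 (trend) fitted log2(CPM + 1) of all 12 libraries for features reaching 1 CPM in 3 or more, with S+G2 contrasted with the mean of the other treatment means and Benjamini-Hochberg adjustment. Fold changes on this scale understate those of low genes. edgeR 4.0.16 and DESeq2 1.42.0 on the recovered reads, other scalings, filters (none, or a mean of 10 reads) and pseudocounts (0.5 and 0.1), a 2-group fit, a replicate block and left-out libraries were alternatives. Library measures used exact permutation tests (scipy 1.17.1). The programs were tested on simulated reads with 200 genes, and separately 200 transcripts, changed in S+G2 alone. All changed features lay above the lowest levels and moved at least 2-fold, and the other treatments had equal means. Recovery of smaller changes and of low features was thus not tested. In limma, passing against each of the 3 treatments found 88% of the changed genes and also returned 63 unchanged ones. For transcripts it found 79.5% and returned 171 unchanged ones. Of the adjusted gene calls against the other nine, 7.95% were false in limma and 12.1% in DESeq2. Adjusted transcript calls in limma found 58.5% of the changed ones, and 7.87% were false. Named were 22 genes with an enzyme name in the study and, per table, the first 2 higher and first 2 lower features by p among those without overlap and with a mean of at least 1 CPM. Members, lists and tests were chosen with earlier results of these data known. The authors' own differential calls were not used.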

Additional observations from a re-analysis of the deposited data

Results flagged for a closer look

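For 1 of 22751 genes, Glyur000768s00019888, the G2 difference with salt (S+G2 minus S) differed from the G2 difference without salt (CK+G2 minus CK) in limma's interaction test, by 2.002 on the log2 scale (SE 0.23, adjusted p = 0.0153). The gene and the contrast were chosen after the data were seen. At the transcript level the same test called 9 higher and 1 lower of 43795 at an adjusted p under 0.05, which were not followed further. It had 79.6, 69.1 and 76.6 CPM in S+G2 and 47.3, 42.7 and 46.1 CPM in S, a log2 difference of 0.71. It had 28.4, 28.1 and 28.6 CPM in CK+G2 and 87.8, 55.1 and 73.3 CPM in CK. With salt all G2 libraries lay above those without G2, and without salt all lay below. S+G2 overlapped CK, so the gene is not among those without overlap. The adjusted p of limma was over 0.05 in 6 of 12 fits that left out 1 library (S libraries 1, 2 or 3, CK+G2 library 2 or 3, or CK library 3, at most 0.0934). The refit without CK library 1 and CK+G2 libraries 2 and 3 kept 1 CK+G2 library, so no p is given for it. The gene has no name in the annotation. Single far values were not searched for, because each treatment had 3 libraries.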

How the results depend on the processing

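Over the named genes and transcripts and all alternatives, 631 of 665 values kept direction and side of the criterion, 14 newly passed it, 6 no longer did and 14 turned direction, the last in 7 genes of the list that had not passed. Counts at an adjusted p under 0.05 were the least stable. For genes against the other nine, a pseudocount of 0.1 gave 5, DESeq2 216 and leaving out 1 library 0 to 92. For transcripts, a pseudocount of 0.1 gave 26, the 2-group fit 4, edgeR 9, DESeq2 278 and leaving out 1 library 4 to 149. The G2 difference with salt minus that without, chosen after seeing the data, gave 51 genes in DESeq2 and 0 to 10 when 1 library was left out. Without those 3 libraries 107 genes passed against each of the 3 treatments and 779 did not overlap, where fewer libraries leave less room for overlap. Leaving out 1 library gave 1224 to 2243 genes past the criterion against the other nine, 725 to 1449 against S, 149 to 529 against each of the 3 and 535 to 1815 without overlap. Leaving out library 3 of S+G2 gave the highest of each, and the cause was not tested. The log2 difference ranged over such fits from -0.046 to 0.19 for β-glucosidase Glyur000585s00027748, -0.35 to 0.12 for INV, -0.81 to 0.19 for TPS Glyur000231s00022077, -0.28 to 0.14 for PFK, -0.026 to 0.25 for ALDH, -0.23 to 0.26 for pdhB and -0.55 to 0.034 for pdhD. The refit without CK library 1 and CK+G2 libraries 2 and 3 kept 1 CK+G2 library. Its log2 difference was -0.066 for that β-glucosidase, 0.045 for PFK and -0.022 for pdhB. For library measures, leaving out 1 library gave differences of -172 to -86.7 genes with reads, -0.262 to -0.157 percentage points on assembled loci and -0.449 to -0.275 on single-exon genes, and 4 such values had an unadjusted exact permutation p under 0.05. Replicate numbers did not pair the libraries, with correlations of deviations from -0.20 to 0.11, and the replicate block gave 1394 genes against the other nine beside 1420, 184 beside 184 against each of the 3 and 17 transcripts beside 16.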
